A study of Bactrocera dorsalis with 3 samples.

Results

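The oriental fruit fly Bactrocera dorsalis carries 6 protein genes of cytochrome c oxidase, cytochrome b and the ATP synthase on its mitochondrial genome. These are COX1, COX2, COX3, CYTB, ATP6 and ATP8. They were taken as the models on scaffold NC_008748.1 with the starts given below, 6 of 13489 gene models in all and 6 of the 13 protein models on that scaffold. Their RNA was measured in whole embryos collected 0-1, 2-4 or 5-8 hours after the eggs were laid (hours post-oviposition, hpo). A single library of poly-T selected RNA stood for each age, and the labels state no strain, sex, embryo number or pooling. Differences between ages therefore cannot be set against the spread of replicates, and none was tested.

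Cytochrome c oxidase is the last enzyme of the respiratory chain and passes electrons from cytochrome c to oxygen. Cytochrome b is the membrane core of the complex before it, and the ATP synthase uses the resulting proton gradient to make ATP. Animal mitochondrial genomes are copied into long RNAs, and the tRNA genes that lie between many protein genes are cut out to leave the separate mRNAs. Fly mitochondrial mRNAs carry short poly-A tails, and an embryo starts with mitochondria and mitochondrial RNA laid down by the mother.

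All 6 models were on the plus strand and had no intron, their listed length being equal to their span. In the coordinates of the files, for which the labels name no build, COX1 (identifier 4657575) ran from 1535 to 3069. COX2 (4657574) ran from 3140 to 3829, and both had a tRNA gene on each side in the reference annotation. ATP8 (4657573) ran from 3972 to 4133 and ATP6 (4657577) from 4127 to 4803, so these models overlapped by 7 bases. COX3 (4657572) ran from 4804 to 5592 and began at the base after the end of ATP6, with no tRNA gene between them. CYTB (4657580) ran from 10540 to 11674 and began at the base after the end of ND6, with a tRNA gene after it.

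Reads assigned to genes ranged from 65069185 to 74817640 per library. Levels are FPKM, fragments scaled to model length and to the library's assigned fragments, and ranges after a level or ratio are 95% intervals from the read counts. The intervals cover counting error only and say nothing of the spread between batches of embryos. Since FPKM is relative to the library, more mitochondrial RNA and less of other poly-A RNA cannot be told apart, nor can more cells of a type and more RNA per cell.

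COX1, whose protein holds the site of oxygen reduction, was at 2084 FPKM at 0-1 hpo, 4378 at 2-4 hpo and 5277 at 5-8 hpo. COX3, another core subunit of the oxidase, was at 2592, 4746 and 5725 FPKM at the same ages. COX2, whose protein takes up electrons from cytochrome c, was at 1287, 2246 and 2615 FPKM. The 3 oxidase genes thus had their lowest level in the youngest embryos and their highest in the oldest, with COX2 the lowest of the 3 in each library.

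CYTB had the same order of ages, at 568 FPKM at 0-1 hpo, 1171 at 2-4 hpo and 1487 at 5-8 hpo. ATP6, whose protein forms part of the proton path of the ATP synthase, was at 3183, 5788 and 4608 FPKM. ATP8, a small subunit of the membrane part of the same enzyme, was at 13.9 FPKM (11.8 to 16.2), 24.7 (21.8 to 27.9) and 15.9 (13.8 to 18.3). Both ATP genes were thus highest at 2-4 hpo, and ATP8 was far below the other 5 genes in each library.

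**Figure D1:**
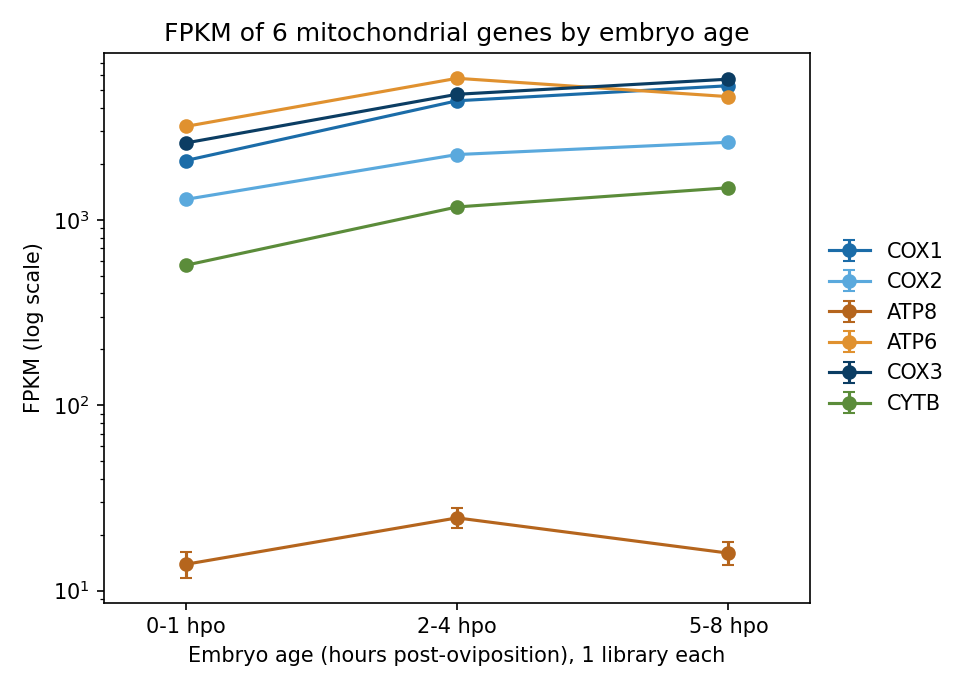
FPKM on a log axis for the 6 genes at each age, 1 library per age; bars are 95% counting intervals and are smaller than the points except for ATP8. ATP6 is the highest of the 6 at 0-1 and 2-4 hpo and COX3 at 5-8 hpo on this per-length scale, while ATP8 lies between 13.9 and 24.7.

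By FPKM the order was ATP6, COX3, COX1, COX2, CYTB, ATP8 at 0-1 hpo and at 2-4 hpo, and COX3, COX1, ATP6, COX2, CYTB, ATP8 at 5-8 hpo. The place of ATP6 at 5-8 hpo depends on the length used. ATP6 was first at all 3 ages per placement of a 250-base fragment that touches 1 protein model only. That measure, given with the neighbours of ATP8, also counts placements that run into the gaps between models, where tRNA genes lie. No neighbours in these orders had overlapping counting intervals, but the smallest steps were slight. COX3 was 1.08 times COX1 at 2-4 hpo and again at 5-8 hpo, and the spread between embryos that such a step would have to exceed was not measured. Among all 13489 models ATP6 held place 3 by FPKM at 0-1 hpo, 2 at 2-4 hpo and 4 at 5-8 hpo. COX3 held places 5, 3 and 2, and COX1 places 7, 6 and 3. COX2 held places 46, 42 and 17 and CYTB places 134, 82 and 65, so that 5 of the 6 genes lay within the first 134 places at each age. ATP8 held places 5402, 3476 and 4528. Only 4, 3 and 1 nuclear genes stood above COX1 at the 3 ages.

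The first comparison set embryos of 2-4 hpo against those of 0-1 hpo, and all 6 genes were higher at 2-4 hpo by library total. On the scale of the summed reads of the 13 mitochondrial protein genes, COX2, ATP8, ATP6 and COX3 turned to slightly lower, so their gain was close to that of the 13 genes as a whole. COX1 was 2.10-fold higher (2.09 to 2.11) and CYTB 2.06-fold (2.04 to 2.09). COX3 was 1.83-fold higher (1.82 to 1.84), ATP6 1.82-fold (1.81 to 1.83), ATP8 1.78-fold (1.45 to 2.19) and COX2 1.75-fold (1.73 to 1.76). The range over the 6 genes, from 1.75 to 2.10, was thus narrow.

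On log2(FPKM + 1), 2 of the 6 genes, COX1 and CYTB, were at least 2-fold higher at 2-4 hpo, where 5.55% of 7310 genes were. None was at least 2-fold lower, where 23.5% of genes were. At 1.5-fold all 6 were higher, against 13.6% of genes, and none lower, against 35.1%. At 4-fold none was higher or lower, where 1.72% and 8.28% of genes were. The median log2 ratio of the 6 was 0.87, with a range from 0.79 to 1.07, and that of all genes compared was -0.21. The 6 genes lay between percentiles 91.5 and 95.1 of the genes compared. The count at 2-fold depended on the scaling, since all 6 genes lay near that value. It was 0 of 6 on the TPM scale, where 5.34% of all genes were at least 2-fold higher and their median was -0.31. It was 5 of 6 after median-of-ratios scaling, where 7.92% were and the median of all genes was -0.02.

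Between 2-4 and 5-8 hpo the 6 genes separated. CYTB was 1.27-fold higher at 5-8 hpo (1.26 to 1.28), COX3 1.21-fold (1.20 to 1.21), COX1 1.21-fold (1.20 to 1.21) and COX2 1.16-fold (1.16 to 1.17). ATP6 was 1.26-fold lower at 5-8 hpo (1.25 to 1.26), and ATP8 was 1.55-fold lower (1.28 to 1.88). Under each of the 6 other scalings and pseudocounts tried, the 4 oxidase and cytochrome b genes stayed higher and the 2 ATP synthase genes lower.

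None of the 6 was at least 2-fold higher or lower at 5-8 than at 2-4 hpo, where 30.3% of 8142 genes were higher and 21.1% lower by that much. At 1.5-fold none was higher and ATP8 was lower, where 39.1% and 31.2% of genes were. At 4-fold none was higher or lower, where 13.8% and 6.3% were. The median log2 ratio of the 6 was 0.24, and that of all genes compared was 0.11. The genes ranged from percentile 30.8 for ATP8 to 55.7 for CYTB, the middle of the distribution. The counting intervals of all 6 ratios excluded 1.

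Over the whole span, CYTB was 2.62-fold higher at 5-8 than at 0-1 hpo (2.59 to 2.65), COX1 2.53-fold (2.52 to 2.54), COX3 2.21-fold (2.19 to 2.22) and COX2 2.03-fold (2.01 to 2.05). ATP6 was 1.45-fold higher (1.44 to 1.46). For ATP8 the ratio was 1.15, with an interval from 0.924 to 1.43 that included 1. On log2(FPKM + 1), 4 of the 6 were at least 2-fold higher, where 23.8% of 8148 genes were. None was at least 2-fold lower, where 27.2% were. At 1.5-fold the same 4 were higher and none lower, where 31.5% and 37.8% of genes were. At 4-fold none was higher or lower, where 10.8% and 10.4% were. The median log2 ratio was 1.08 for the 6 and -0.17 for all genes compared. Relative to the summed mitochondrial protein reads, COX1, COX3 and CYTB stayed higher, and COX2, ATP8 and ATP6 turned to lower. On the TPM scale 3 of the 6 were at least 2-fold higher, without COX2, where 23% of all genes were.

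**Figure D2:**
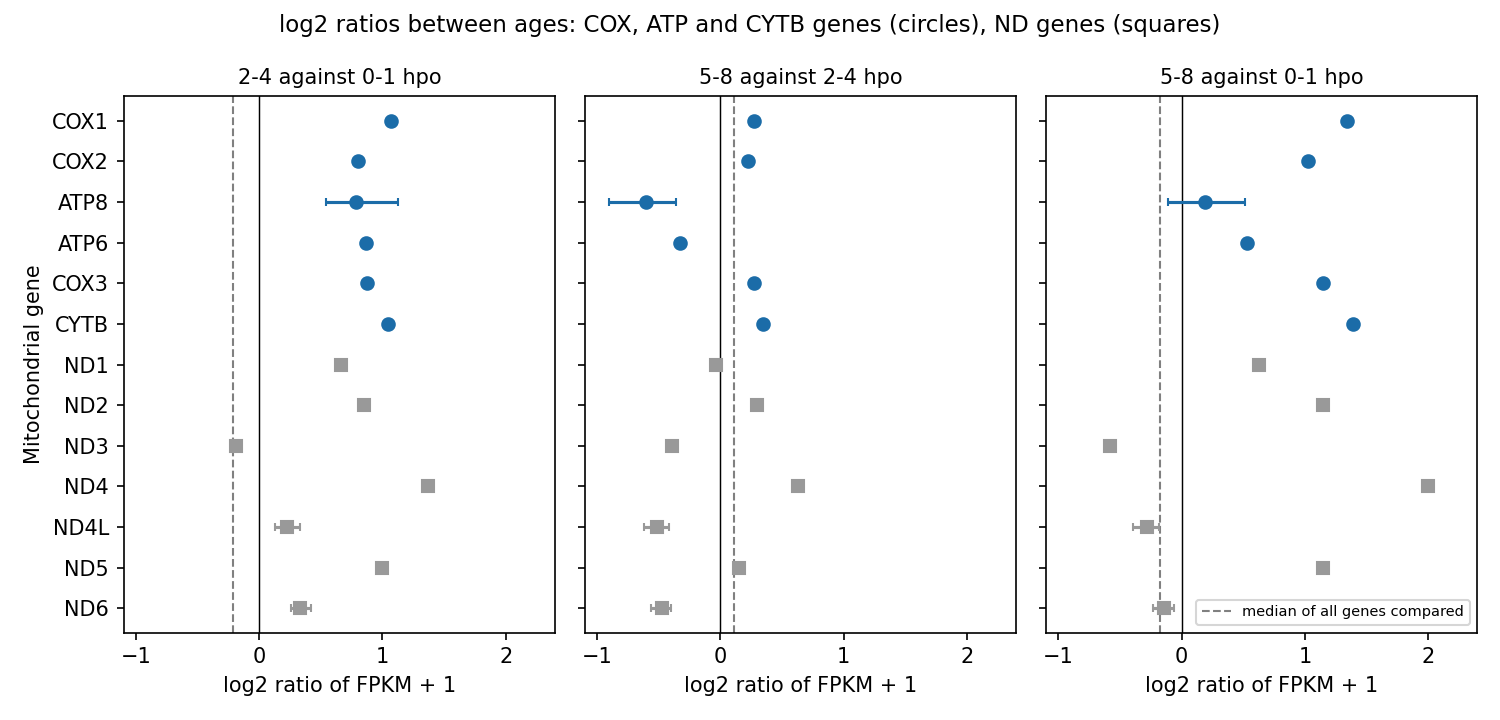
The log2 ratio of FPKM + 1 between ages for the 6 genes (circles) and the 7 ND genes (squares); bars are 95% counting intervals of the FPKM ratio and the dashed line is the median of all genes compared. By library total all 6 circles lie right of 0 at 2-4 against 0-1 hpo, although 4 of them turn to slightly lower relative to the mitochondrial total, and ATP8 and ATP6 lie left of 0 at 5-8 against 2-4 hpo.

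The 7 ND genes, which encode subunits of NADH dehydrogenase, the entry complex of the same chain, were more spread. At 2-4 against 0-1 hpo their log2 ratios ran from -0.19 for ND3 to 1.37 for ND4, with a median of 0.66. At 5-8 against 2-4 hpo they ran from -0.51 for ND4L to 0.63 for ND4, with a median of -0.03. Whether the 6 genes and the 7 ND genes differ cannot be tested with 1 library per age.

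The 6 genes took 0.893% of all assigned reads at 0-1 hpo (0.891 to 0.896), 1.73% at 2-4 hpo (1.72 to 1.73) and 1.92% at 5-8 hpo (1.92 to 1.93). The share at 2-4 hpo was 1.93 times that at 0-1 hpo, and the share at 5-8 hpo was 1.11 times that at 2-4 hpo. Most of the gain in share thus lay in the first interval. Of the reads on the 13 mitochondrial protein genes, the 6 held 86.2%, 88.1% and 88.2% at the 3 ages.

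Within the mitochondrial protein reads, COX1 and ATP6 moved by more percentage points from the first age to the last than the sum of the 6. COX2, COX3, CYTB and ATP8 moved by fewer. COX1 held 30.9% at 0-1 hpo, 34.3% at 2-4 hpo and 37.1% at 5-8 hpo. ATP6 held 20.8%, 20.0% and 14.3%, and COX3 held 19.7%, 19.1% and 20.7%. COX1 was thus the largest single contributor at each age, with ATP6 second at 0-1 and 2-4 hpo and behind COX3 at 5-8 hpo. COX2 held 8.57%, 7.90% and 8.28%, and CYTB 6.22%, 6.78% and 7.74%. ATP8 held 0.0217%, 0.0204% and 0.0118%.

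**Figure D3:**
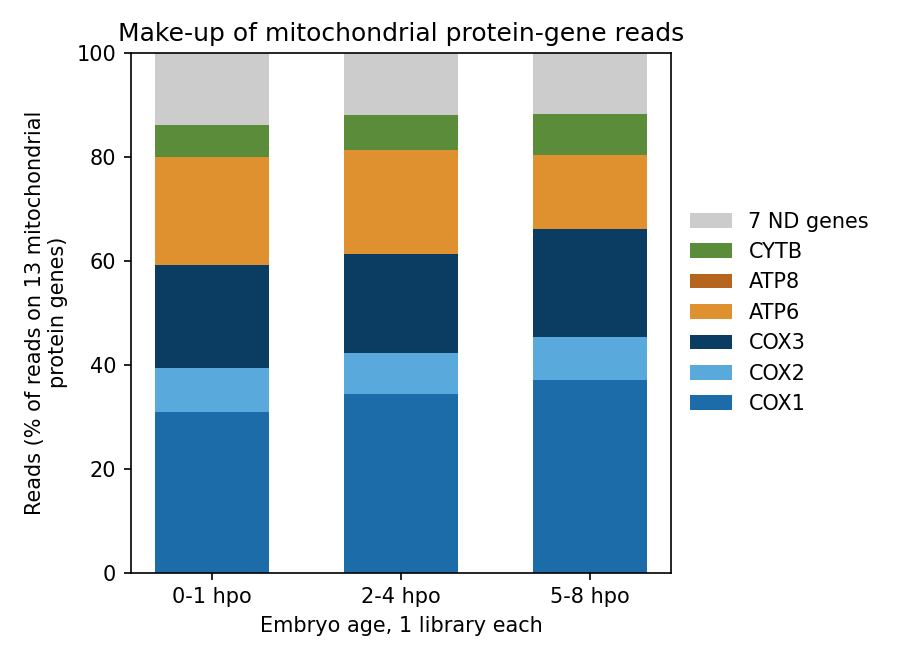
Percent of reads on the 13 mitochondrial protein genes that fell on each of the 6 genes and on the 7 ND genes together, by age, 1 library each. The ATP6 band is 20.8%, 20.0% and 14.3% at the 3 ages, the COX1 band 30.9%, 34.3% and 37.1%, and the ATP8 band is too thin to see.

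ATP8, ATP6 and COX3 follow one another on the plus strand, and their levels were compared within each library. Per length, ATP6 stood at 1.23 times COX3 at 0-1 hpo (1.22 to 1.24), 1.22 times at 2-4 hpo (1.21 to 1.23) and 0.805 times at 5-8 hpo (0.801 to 0.809). The ratio at 2-4 hpo was 0.993 times that at 0-1 hpo (0.984 to 1.00), so the pair kept its proportion over the first interval within counting error. The ratio at 5-8 hpo was 0.660 times that at 2-4 hpo (0.655 to 0.665). A ratio within a library does not depend on how libraries are scaled, but its level depends on the length used. Per placement of a 250-base fragment that touches the one model only, ATP6 stood at 1.54, 1.53 and 1.01 times COX3, so on that measure it was not below COX3 at 5-8 hpo. For 300-base fragments the ratios were 1.60, 1.59 and 1.05. The count of placements considers the 13 protein models only. For COX3 it includes placements that run into the 74-base gap before ND3, where a tRNA gene lies. Those counted for ATP6 lie within ATP6. Ratios without the gap were not computed, so whether ATP6 was below COX3 at 5-8 hpo is not settled. The change of the ratio between ages is the same on each of these measures.

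The lower ratio at 5-8 than at 2-4 hpo also appeared when ATP6 was set against COX2 and COX1. From 0-1 to 2-4 hpo these ratios were not level, changing by 1.04 times against COX2 and 0.865 times against COX1. ATP6 stood at 2.47 times COX2 at 0-1 hpo, 2.58 times at 2-4 hpo and 1.76 times at 5-8 hpo. Against COX1 it stood at 1.53, 1.32 and 0.873 times per length, and at 2.56, 2.22 and 1.46 times per such placement of a 250-base fragment. The placements counted for COX1 include those that run into the gaps on each side of it. These ratios share ATP6, so they are one observation on ATP6 seen against several genes.

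The ATP8 model drew 153 reads from the 0-1 hpo library, 260 from the 2-4 hpo library and 193 from the 5-8 hpo library. ATP6 drew 146835, 254971 and 233420 reads from the same libraries. Per length ATP8 stood at 0.435% of ATP6 at 0-1 hpo, 0.426% at 2-4 hpo and 0.346% at 5-8 hpo. ATP8 was thus 229.6, 235 and 289 times lower than the gene it overlaps. In animals these reading frames are commonly translated from a single mRNA. The ATP8 model is 162 bases long, shorter than the 250 to 300 bases preferred in the size selection of library fragments.

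For a 250-base fragment, 48 of the 411 placements that touch ATP8 touch no other listed model, 11.7%, and for a 300-base fragment 0 of 461 do. Only the 13 protein models were considered, and ATP8 is shorter than such a fragment. All 48 placements therefore run into the 142-base gap between COX2 and ATP8, where a tRNA gene lies. For ATP6 the shares were 45.5% and 38.0%, for COX3 59.2% and 51.8%, and for COX1 89.7% and 84.5%. Some read counters set aside a fragment that touches more than 1 model, and the labels do not say whether that was done here. Per placement of a 250-base fragment that touches the one model only, ATP8 stood at 0.00914, 0.00894 and 0.00725 times ATP6 at the 3 ages, while for 300-base fragments no such value can be had. Where the RNA of the gap before ATP8 is cut away, no 250-base fragment touches ATP8 alone, and these values then have no meaning. The part of model overlap in the low value of ATP8 was not tested, and its FPKM is not a measure of the ATP8 reading frame's RNA where fragments are set aside.

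**Figure D4:**
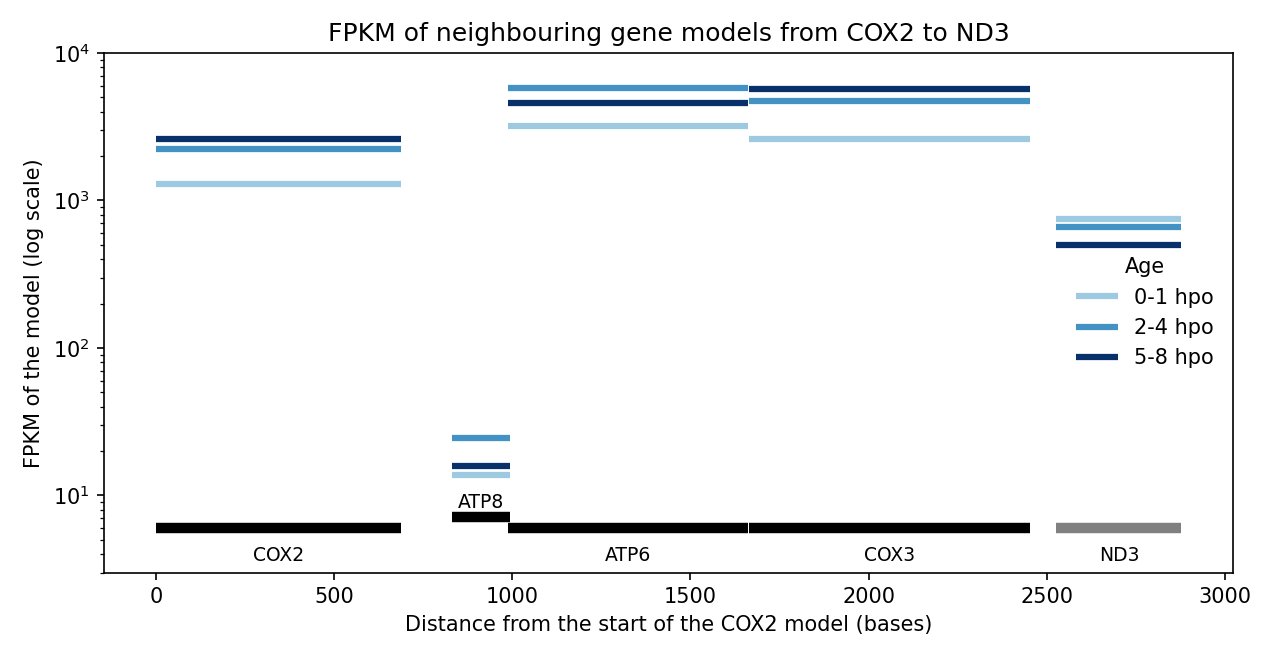
FPKM (log axis) of the models from COX2 to ND3, each drawn over its own span as distance from the start of COX2, with 1 line per age and the models as blocks at the foot. ATP6 lies above COX3 at 0-1 and 2-4 hpo and below it at 5-8 hpo on this per-length scale, while ATP8, which overlaps ATP6 by 7 bases, lies between 13.9 and 24.7.

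From 2-4 to 5-8 hpo the oxidase genes kept closer proportions to each other than ATP6 kept to COX3. From 0-1 to 2-4 hpo they did not. COX1 to COX3 then changed by 1.15, COX1 to COX2 by 1.20 and COX2 to COX3 by 0.953 times, against 0.993 times for ATP6 to COX3. Per length, COX1 stood at 0.804 times COX3 at 0-1 hpo, 0.923 times at 2-4 hpo and 0.922 times at 5-8 hpo. COX2 stood at 0.496, 0.473 and 0.457 times COX3. COX1 against COX2, 2 models parted by a tRNA gene, stood at 1.62, 1.95 and 2.02 times. The highest of the 3 oxidase genes, COX3, was thus 2.01, 2.11 and 2.19 times the lowest, COX2, although the enzyme holds their proteins in equal number.

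CYTB stood at 0.272 times COX1 at 0-1 hpo, 0.268 times at 2-4 hpo and 0.282 times at 5-8 hpo, the steadiest of the pairs given here. Its upstream neighbour ND6, which it abuts as COX3 abuts ATP6, was at 10.9%, 6.66% and 3.75% of CYTB per length. ND6 was at 61.6, 78.0 and 55.8 FPKM, so in this abutting pair too the upstream model was lower at 5-8 than at 2-4 hpo and the downstream model higher.

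Model length moved with the differences between ages, a pattern seen after the values were known. At 5-8 against 2-4 hpo, 1 of the 6 mitochondrial protein models shorter than 700 bases was higher, COX2 at 690 bases. ATP8 at 162 bases and ATP6 at 677 bases were lower, as were ND4L, ND3 and ND6. Of the 7 longer models 6 were higher, COX3, CYTB and COX1 among them, and ND1 was lower. Across the 13 models Spearman's rho between length and log2 ratio was 0.79, and it was 0.81 at 2-4 against 0-1 hpo and 0.87 at 5-8 against 0-1 hpo. These models share 1 genome, the same libraries and the same depth, and they are not independent.

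Nuclear models without introns were split at the same length, taking those that reached FPKM 10 in one of the libraries compared. At 2-4 against 0-1 hpo the median log2 ratio was -0.21 for the 59 shorter than 700 bases and -0.11 for the 387 longer ones, the shorter class being the lower, as among the mitochondrial models. In the other 2 comparisons the shorter class had the higher median. At 5-8 against 2-4 hpo the medians were -0.0076 for 65 shorter and -0.13 for 402 longer models. At 5-8 against 0-1 hpo the medians were -0.24 for 68 shorter and -0.38 for 417 longer models. Among all nuclear models, with or without introns, the shorter class had the higher median in each comparison. At 2-4 against 0-1 hpo these medians were -0.20 for 430 shorter and -0.24 for 5549 longer models. The share of placements that touch one model only also moved with the log2 ratio over the 13 mitochondrial models, with a rho for 250-base fragments of 0.41 at 2-4 against 0-1 hpo, 0.62 at 5-8 against 2-4 hpo and 0.59 at 5-8 against 0-1 hpo. The parts of length and of model overlap in the lower ATP6 and ATP8 values at 5-8 hpo were not tested.

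**Figure D5:**
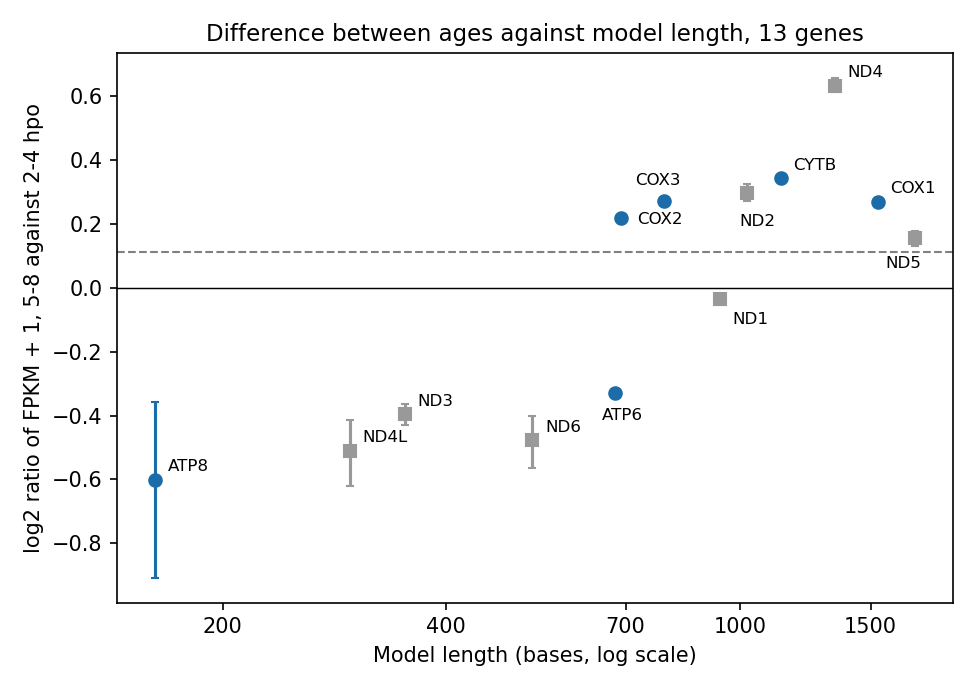
The log2 ratio of FPKM + 1 at 5-8 against 2-4 hpo against model length (log axis) for the 6 genes (circles) and 7 ND genes (squares); bars are 95% counting intervals and the dashed line is the median of all genes compared. ATP6 at 677 bases and COX2 at 690 bases are nearly equal in length and lie on opposite sides of 0, while ATP8 and the shortest ND genes lie below 0.

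Nuclear genes were ranked by how close their log2 ratios over the 2 successive intervals lay to the medians of the 6 genes, 0.87 and 0.24. Among 6523 nuclear genes that reached FPKM 10 at any age, 61 lay within a distance of 0.25. The closest was LOC105222993, at 13.1, 24.7 and 29.1 FPKM, followed by LOC105231092, at 31.9, 60.2 and 71.2 FPKM. LOC105226889, at 47.4, 88.8 and 103 FPKM, was also among the closest 5, together with LOC105229771 and LOC109579202. COX3 lay at a distance of 0.03 from the medians, COX2 at 0.07, CYTB and COX1 at 0.20 and 0.21, ATP6 at 0.57 and ATP8 at 0.85. The medians were taken over these same 6 genes, so their distances cannot be set against those of other genes. Of the ND genes, ND2 lay at 0.05, ND5 at 0.16 and ND1 at 0.35. ND4 lay at 0.63, ND6 at 0.90, ND4L at 0.99 and ND3 at 1.24. The closest 5 nuclear genes, picked for their closeness, were far less abundant than the oxidase genes.

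Among 46 nuclear genes with an informative name the closest was Pihd2, at a distance of 0.56, with 14.5, 20.1 and 31.3 FPKM. Dcp1b followed at 0.61 and TREA, which encodes trehalase, at 0.69. Lists of nuclear subunits of the oxidase, of the cytochrome b-c1 complex and of the ATP synthase, of cytochrome c, and of mitochondrial transcription and RNA tail factors were also searched. None of these 5 lists held a symbol that the reference table pairs with a gene of the files, so their nuclear partners are not analysed here.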

How the data were processed

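Total RNA was extracted with Trizol and selected on poly-T beads before random-primed cDNA synthesis, per the labels' protocols. HISAT2 2.0.4 and HTSeq 0.9.1 are named in the submitters' processing notes; settings, strand handling and genome build are not stated there. The deposited files held whole-number read counts per gene and the authors' FPKM values. For the 13 mitochondrial models the deposited FPKM equalled counts per listed length and library total.

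Ratios of FPKM were given with exact conditional binomial 95% intervals, levels with exact Poisson intervals, shares with Clopper-Pearson intervals, and changes of ratios with normal intervals on the log scale. Genes that reached FPKM 1 in one of the 2 libraries formed the background, on log2(FPKM + 1). Calculations used Python 3.11.15, numpy 2.4.6, pandas 2.3.3 and scipy 1.17.1, and were tested on simulated counts. Names and gene order came from RefSeq assembly ASM2337382v1, which paired 11887 of 13489 identifiers, 76 with an informative name. The named genes were the 6, the ND genes, and the nuclear genes nearest in Euclidean distance, 5 of any name and 5 with an informative name, of which 3 are printed. Alternatives were a pseudocount of 0.1, other scalings, thresholds and filters, and omission of ATP8; ATP6 to COX3 and the order per fragment placement, and shares of all genes on other scales, were added after seeing the data. The genes and lists were chosen with earlier results of these data known, and the length classes and the pairs other than ATP6 to COX3 and ATP8 to ATP6 after the values were seen. No marker list for embryo age was tested.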

Additional observations from a re-analysis of the deposited data

How the results depend on the processing

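In the order 2-4 against 0-1, 5-8 against 2-4 and 5-8 against 0-1 hpo, the median log2 ratios of the 6 genes were 0.87, 0.24 and 1.08. TPM values gave 0.77, 0.20 and 0.95. After median-of-ratios scaling they were 1.07, 0.21 and 1.25. Relative to the mitochondrial protein total they were -0.052, 0.091 and 0.0098, the first with the opposite sign. That scale removes the common gain by construction. On it COX2 (-0.12), ATP8 (-0.085), ATP6 (-0.057) and COX3 (-0.047) were lower at 2-4 than at 0-1 hpo, and COX2 (-0.050), ATP8 (-0.82) and ATP6 (-0.54) were lower at 5-8 than at 0-1 hpo. With the total taken without mitochondrial reads the first and last medians were 0.88 and 1.10, and without ATP8 the last 2 were 0.27 and 1.14.

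At 2-4 against 0-1 hpo, 2 genes were at least 2-fold higher by library total, 5 after median-of-ratios scaling, and 0 on the TPM scale or relative to the mitochondrial total. Of all genes 5.55%, 7.92%, 5.34% and 2.53% were at least 2-fold higher on these scales, in that order. Relative to the mitochondrial total, 53.5% of all genes were at least 2-fold lower, and their median log2 ratio was -1.08. By library total 6 passed 1.5-fold upwards and 0 passed 4-fold. At 5-8 against 2-4 hpo, 0 were at least 1.5-fold higher and ATP8 alone was at least 1.5-fold lower. At 5-8 against 0-1 hpo, 4 were at least 2-fold higher by library total, 3 on the TPM scale (without COX2), and 0 relative to the mitochondrial total. Of all genes 23.8%, 23% and 13.9% were at least 2-fold higher on these scales, in that order. At 4-fold 0 of the 6 were higher by library total. With mitochondrial protein reads as the denominator the 6 genes held 86.2%, 88.1% and 88.2%, against 0.893%, 1.73% and 1.92% of all reads. By reads without a length term ATP6 to COX3 was 1.05, 1.05 and 0.691, and 3, 3 and 4 of the 6 genes kept their place in the order of levels. Per placement of a fragment on 1 model only, added after seeing the data, ATP6 to COX3 was 1.54, 1.53 and 1.01 for 250 bases and 1.60, 1.59 and 1.05 for 300 bases. These counts include placements that run into the gaps between protein models, where tRNA genes lie. For 250 bases ATP6 was first at each age, and at 5-8 hpo 3 of the 6 genes kept their place. ATP8 to ATP6 per placement of a 250-base fragment was 0.00914, 0.00894 and 0.00725, and no placement of a 300-base fragment met ATP8 alone. The 250-base placements counted for ATP8 all run into the gap before it, so these values depend on RNA of that gap being present. The filters on low values do not touch the 6 genes. No paired analysis was possible because there was a single library per age, and no replicate could be left out. Depth limits ATP8 most, with 153 to 260 reads per library.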

Other observations

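ND3, the first model after COX3 on the plus strand and parted from it by a tRNA gene, was at 749 FPKM in the youngest, 657 in the middle and 499 in the oldest embryos. Per length it stood at 28.9%, 13.8% and 8.71% of COX3 at these ages, so the gap between COX3 and the model downstream of it widened at each step. COX2 and COX3 kept closer to each other over the same ages, at 49.6%, 47.3% and 45.7%. These pairs were chosen after their values were seen, and their differences between ages have no replicate check.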
